A study of Mus musculus with 16 samples.

Results

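The genes of the cytoplasmic ribosome were followed across bone marrow (BM) cell types, maturation stages and treatments. Members were all genes of the feature tables whose symbol is Rpl or Rps followed by a digit, or Rplp0, Rplp1, Rplp2 or Rpsa, without Rps6k kinases and pseudogenes, and with at least 500 unique molecular identifiers (UMIs) summed over the 12 BM libraries. Of 86 symbols that matched, 84 passed, out of 32286 genes. Rpl10l with 0 UMIs and Rpl39l with 98 UMIs fell below the minimum, and Rpl3l with 1332 UMIs and Rps27rt with 8898 UMIs were the members closest above it. The members comprise 34 genes with an Rps symbol (small subunit) and 50 with an Rpl symbol (large subunit). They include Rps19bp1 and Rpl7l1, which share the naming but do not encode core ribosomal proteins (RPs).

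BM cells came from female WT BALB/c mice and were sorted either as CD45+Ter119- cells (CD45+ libraries) or as CD45+ lineage-negative c-Kit+ hematopoietic stem and progenitor cells (HSPC libraries). Non-tumor-bearing WT mice, which were untreated and carry a control label, were compared with mice bearing the Trp53-null mammary tumor 2208L and given either methylcellulose vehicle or IACS-70654, an inhibitor of the bromodomains of CBP and P300, by mouth on a 3-on/2-off schedule. Tumors were transplanted as a chunk into the fourth mammary fat pad at 7 to 8 weeks of age, and treatment of BM donors lasted 7 days in the series record and 6 days in the text of the study. Each group has 2 libraries per sort, each of cells pooled from 3 mice, and the 2 libraries of a group may be parts of 1 pool, so that p-values measure only the spread between these libraries, which may be technical. In addition, 4 libraries of 2208L tumors cover vehicle, IACS-70654, anti-PD-1 and their combination, with 1 library per condition.

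Each ribosome joins a small subunit, which reads the mRNA, with a large subunit, which forms the peptide bond, and nearly every RP is needed in equal number in each particle. RP mRNAs are among the most abundant of a growing cell and typically start with a tract of pyrimidines (a 5′ terminal oligopyrimidine or TOP motif), through which their translation follows nutrient and growth signals. Neutrophils stop dividing and shrink their nucleus and protein synthesis as they mature, while inherited loss of a copy of Rps19 and related genes causes Diamond-Blackfan anemia, in which erythroid progenitors fail.

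After filters on genes and mitochondrial UMIs, 73176 cells remained, the total per library ran from 15590289 to 68415534 UMIs, and libraries of 1 sort had 0 barcodes in common. Members took 7.17% to 12.4% of all UMIs in the CD45+ libraries, 28.7% to 31.6% in the HSPC libraries and 15.6% to 16.4% in the tumor libraries. Cells were clustered without RP genes, and a cluster was named by marker genes fixed beforehand, so each name below stands for cells like that type. Clusters that met no marker rule or were too small stayed unnamed and were left out. In the HSPC sort these held 1524 WT, 864 vehicle and 875 IACS-70654 cells. The libraries there kept 3875 and 3039, 6571 and 2836, and 7517 and 4317 cells in this order. In the CD45+ sort the unnamed clusters held 404, 206 and 254 cells. HSPC-sort eosinophil, B and T/NK cells and CD45+ dendritic and erythroid cells were named but not summed. In the CD45+ sort, neutrophils divided into proliferating pro/preNeu (with an azurophil-high and a cycling subclass), immature, mature and Il1b-high neutrophils. The split of pro/preNeu was added after the data had been seen. Clusters high in Elane, Mpo and Ctsg were called azurophil-high and all others cycling, without a cell cycle criterion. Without integration, the neutrophil clusters followed the groups in part. Of the IACS-70654 mature neutrophils, 88.5% lay in a cluster led by Wfdc17, Cstdc4 and Stfa2, against 57.4% of WT and 51.9% of vehicle cells in one led by Ccl6 and Cd101. Among immature neutrophils, IACS-70654 cells lay in 2 clusters led by stefin and cystatin genes (49.8% and 42.4%), whereas 95.4% of WT and 89.7% of vehicle cells lay in one led by Ltf and Ly6g. Among pro/preNeu, the largest cluster of IACS-70654 cells held 30.8% of them, whereas another held 37.4% of WT and 38.5% of vehicle cells. Values between groups within pro/preNeu, immature and mature neutrophils therefore compare partly different clusters, whereas Il1b-high neutrophils were 1 cluster. Shares within single clusters of pro/preNeu are not given.

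The share of UMIs taken by RP genes separated the cell types of the CD45+ sort more than it separated the groups. Among HSPC classes this did not hold. There, basophil/mast progenitors averaged 25.2% with IACS-70654 and 30.2% in WT, while class means other than the erythroid one ran from 28.15% to 30.1%. The share was highest in HSPCs, at 25.1% to 33.7% over their summed classes and all libraries, and fell with neutrophil maturation. In pro/preNeu the WT libraries held 10.4% and 11.7%, the vehicle libraries 8.98% and 8.23% and the IACS-70654 libraries 13.2% and 13.1%. It was 3.36% and 3.35%, 3.18% and 3.21%, and 3.80% and 3.82% in immature neutrophils of the same groups in this order. In mature neutrophils WT libraries held 2.23% and 2.25%, vehicle libraries 2.28% and 2.31%, and IACS-70654 libraries 2.42% and 2.46%. No library of mature neutrophils reached the share of any library of immature neutrophils, and none of these reached pro/preNeu. Averaged over the 6 libraries, the share dropped from 10.9% ± 2.08 (SD, n = 6) in pro/preNeu to 3.45% ± 0.287 in immature neutrophils (0.320-fold) and 2.33% ± 0.0960 in mature neutrophils (0.216-fold). Each of these drops was seen in 6 of 6 libraries (exact paired permutation test, 2-sided p = 0.0312, the smallest it can give, adjusted p = 0.0416 over 12 stage pairs). Monocytes, which are short-lived phagocytes of the same progenitors, held 18.9% ± 1.12, a 1.76-fold higher share than pro/preNeu (6 of 6 libraries, same test and p). In mature neutrophils the summed monocyte markers stood at 206 to 456 CPM, against 5164 to 7199 CPM in monocytes. CPM are the counts of a gene scaled by all UMIs of the class in a library. The part of free RNA in the low neutrophil values was not tested.

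**Figure D1:**
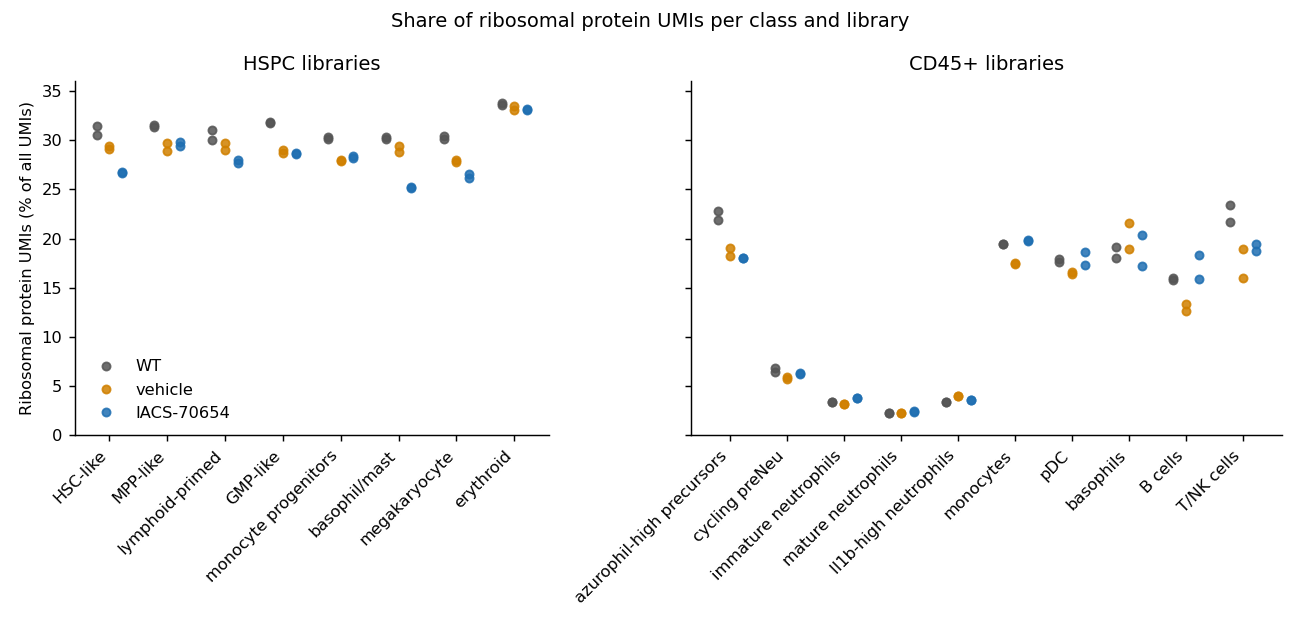
Share of all UMIs taken by the 84 RP genes (percent, vertical axis) in each BM class (horizontal axis), 1 point per library, colored by group, with HSPC libraries at the left and CD45+ libraries at the right. Pro/preNeu appear as their azurophil-high and cycling subclasses, and neutrophils step down from means of 19.7% and 6.27% in these to 2.23% to 2.46% in mature cells. The HSPC classes shown stand between 25.1% and 33.7%.

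Nearly every member fell between pro/preNeu and mature neutrophils. Changes between stages were fitted with edgeR on UMIs summed per class and library, with the library as a block and TMM scaling, and the study's thresholds were kept for a call, that is an adjusted p below 0.01 with a log2 change above 0.5 in either direction. By this rule 80 of 84 members fell and 2 rose, beside 39.0% of all genes tested that fell and 33.9% that rose, and the median log2 change was -2.04 for members and -0.11 for all genes. In immature against pro/preNeu, 81 members fell and 1 rose (background 34.0% lower and 28.6% higher), with a median of -1.37. Both subunits moved alike in mature neutrophils, with medians of -2.06 over 34 small subunit and -2.03 over 50 large subunit members. Scaling to library totals moved the median of all genes by -0.44 in mature neutrophils and -0.41 in immature ones and so makes the fall of the members larger, not smaller.

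The most strongly downregulated members were Rpl36a, Rpl36al, Rpl12, Rpl10a and Rpl3, which all encode large subunit proteins. Rpl36a stood at 632 and 731 CPM in WT pro/preNeu, 535 and 480 CPM with vehicle, and 754 and 761 CPM with IACS-70654, and at 50.9 and 50.6, 38.8 and 41.6, and 38.9 and 39.9 CPM in mature neutrophils. The 2 stages did not overlap in any group, and the fitted log2 change was -3.44 ± 0.112 (SE, 0.0921-fold, edgeR adjusted p = 9.25e-11). Rpl10a went from between 507 and 1099 CPM over the 6 pro/preNeu libraries to between 47.3 and 65.5 CPM (log2 change -3.35 ± 0.181, edgeR adjusted p = 6.26e-09). Rpsa, the laminin receptor homolog of the small subunit, had a log2 change of -3.20 ± 0.0824, and Rps19 one of -2.76 ± 0.114. The acidic stalk of the large subunit, which recruits elongation factors, had log2 changes of -1.36 for Rplp0, -1.95 for Rplp1 and -2.20 for Rplp2. Rpl5 and Rpl11, which bind 5S rRNA and can hold back Mdm2, changed by -2.46 and -2.20.

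Rps9 (ENSMUSG00000006333, chr7:3703993-3706897 of mm10, plus strand), which encodes a small subunit protein near the decoding center, did not follow them. It stood at 2247 and 2450 CPM in WT pro/preNeu, 2307 and 2263 CPM with vehicle and 2639 and 2637 CPM with IACS-70654. In mature neutrophils it stood at 2136 and 2126, 2968 and 2924, and 2556 and 2536 CPM. In CPM the stages thus overlapped over the 6 libraries, with mature neutrophils higher in the vehicle libraries and lower in those of WT and IACS-70654. On the TMM scale over all groups, Rps9 rose by a log2 change of 0.50 ± 0.0973 (1.42-fold, edgeR adjusted p = 4.72e-04). As a part of all RP UMIs, Rps9 went from 2.00% to 2.75% in pro/preNeu to 5.58% to 7.14% in immature and 9.47% to 13.01% in mature neutrophils, a 4.82-fold rise when fitted against the summed RP UMIs (log2 change 2.27 ± 0.123, adjusted p = 2.95e-12).

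Rpl3l (ENSMUSG00000002500, chr17:24727820-24736143, plus strand), the muscle-type paralog of Rpl3, was the other member called higher by TMM. Its UMIs were few, from 71 to 179 per library in mature neutrophils, or 13.7 to 14.7 CPM, against 0.68 to 2.68 CPM in pro/preNeu and 4.92 to 6.48 CPM in immature neutrophils. No library overlapped between stages (log2 change 3.83 ± 0.222, 14.2-fold, edgeR adjusted p = 1.17e-08). Since Rpl3 itself fell, Rpl3l made up 20.2% of the UMIs of the pair in mature neutrophils (18.3% to 22.2% over libraries), 5.15% in immature neutrophils and 0.216% in pro/preNeu. In Il1b-high neutrophils it was 17.7% (8.33% to 33.3%), on 6 to 19 UMIs of Rpl3l per library. In monocytes it was 0.0920% and in HSPC classes at most 0.0820% on average.

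Rps27 and Rps27a also held their level better than the rest. Rps27a, which encodes a ubiquitin fusion protein, changed by a log2 of -0.63 ± 0.0945 (edgeR adjusted p = 5.81e-05) and accounted for 6.83% to 7.47% of RP UMIs in mature neutrophils. Rps27, which encodes a zinc finger protein of the small subunit, changed by -0.24 ± 0.0909 (adjusted p = 0.0291). Its near-identical retrocopy Rps27rt was fitted at -0.10 ± 0.132 (adjusted p = 0.507). Reads of these copies can be split by the counting, so the values of Rps27rt are uncertain. Fitted against the summed RP UMIs, 11 members rose and 29 fell at the same thresholds in mature neutrophils (background 67.6% higher and 11.2% lower), led by Rpl3l, Rps9, Rps27rt, Rps27 and Rps27a upward and by Rpl36a, Rpl36al, Rpl12, Rpl10a and Rpl3 downward.

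**Figure D2:**
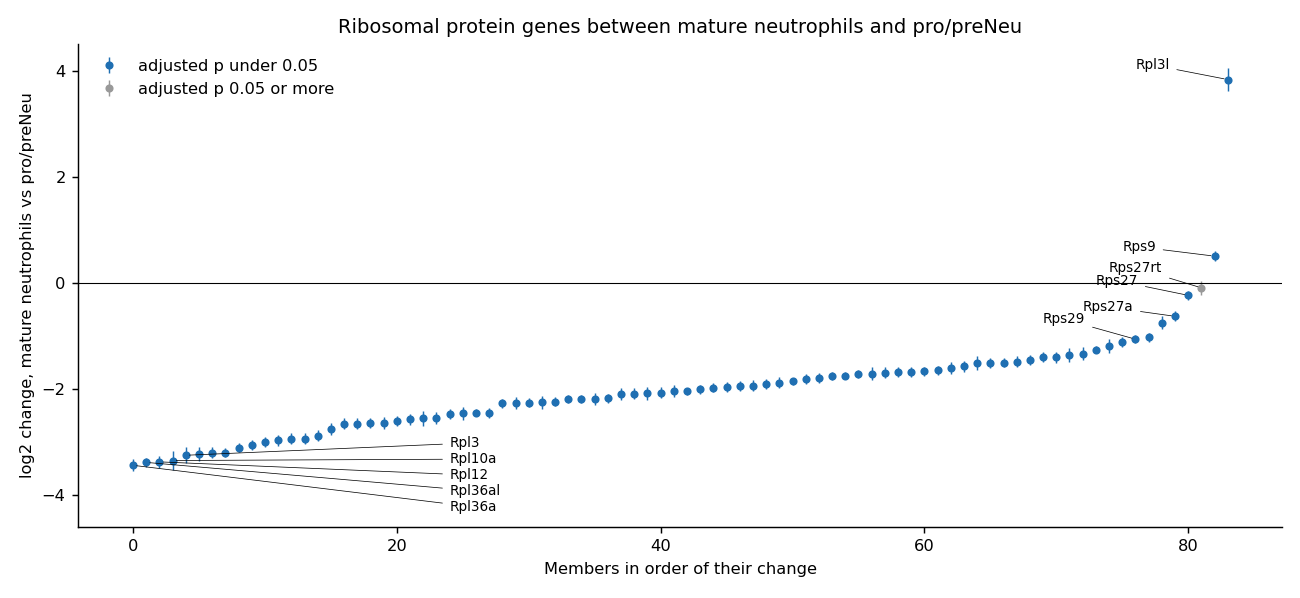
Fitted log2 change (TMM scale, vertical axis) of the 84 members between pro/preNeu and mature neutrophils, in order of their change (horizontal axis), with bars for the SE, blue for edgeR adjusted p under 0.05 and gray otherwise. Rpl3l at 3.83 and Rps9 at 0.50 stand above 0 (in CPM the stages of Rps9 overlapped, higher in mature cells with vehicle only), and the fall reaches -3.44 in Rpl36a.

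**Figure D3:**
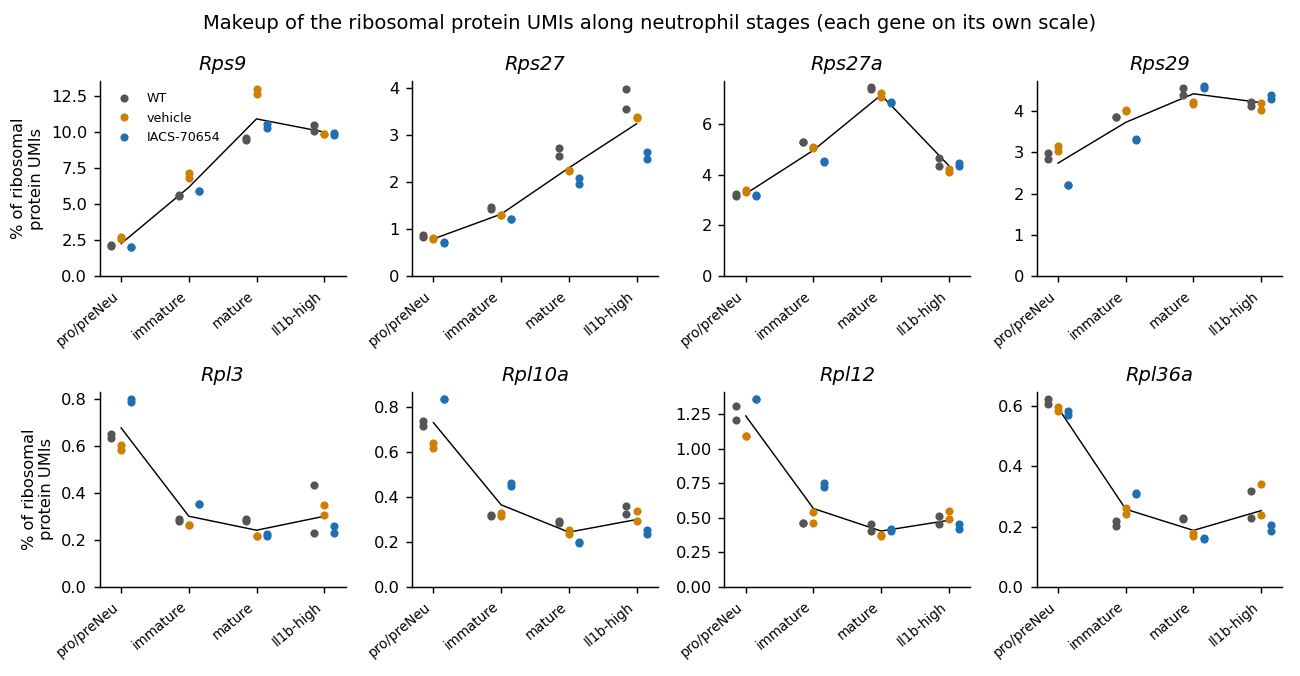
Percent of RP UMIs (vertical axis, from 0 and on its own scale for each gene) taken by 8 members along the neutrophil stages (horizontal axis), 1 point per library colored by group, with a line through the means over libraries. Rps9 runs from 2.00% to 2.75% in pro/preNeu to 9.47% to 13.01% in mature cells, with the vehicle libraries highest.

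The start of these genes was read from RefSeq promoters (build GRCm38.p6), which matched 64 of 84 members. A tract was scored where a C followed by C or T bases, 5 or longer in all, began within 3 bases of the annotated start. It was found in 26 of 64 members (40.6%), in 13.5% of all 27025 promoters, and in 9 of 69 genes of mitochondrial RPs, which are not TOP mRNAs. Of other TOP mRNAs it was found in 1 of 6, of elongation factor genes in 1 of 3 and of RP genes outside the symbol rule in 2 of 2. A match is only of letters, and starts annotated a few bases off miss it. A member scored without a tract may therefore still have the motif. The windows below span 10 bases before and 20 after the start, 5′ to 3′ on the gene's strand, with the tract in capitals. Shown are 4 members that stand out in neutrophils and have a tract, including a pair of near-copies, and 3 that stand out and have none.
Rps9, chr7:3704031-3704060, plus strand: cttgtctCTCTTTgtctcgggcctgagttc
Rps27, chr3:90213629-90213658, minus strand: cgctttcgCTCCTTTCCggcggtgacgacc
Rps27rt, chr9:114982720-114982749, minus strand: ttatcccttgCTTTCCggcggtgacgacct
Rpl12, chr2:32961702-32961731, plus strand: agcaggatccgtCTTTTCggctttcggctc
Rpl10a, chr17:28328461-28328490, plus strand: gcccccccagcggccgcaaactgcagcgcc
Rpl36a, chrX:134585644-134585673, plus strand: cccaggcaccgcctataaacttccgttgcg
Rpl3l, chr17:24727816-24727845, plus strand: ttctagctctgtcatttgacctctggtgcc
Rps9, which was higher in mature neutrophils on the TMM scale and, in CPM, with vehicle only, and Rpl12, which was among the strongest fallers, both carry a tract. Members with a tract had a median log2 change of -2.04 between pro/preNeu and mature neutrophils, and the 38 without had one of -2.09.

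A fall was also seen inside the precursors. Its start was not placed, since neutrophil-committed progenitors (28.6% to 31.8%) were sorted apart from azurophil-high precursors (18.0% to 22.8%). Cycling preNeu held 6.27% ± 0.394 (SD, n = 6) of UMIs in RP genes and azurophil-high precursors, which express Mpo, Elane and Ctsg and precede them, 19.7% ± 2.15 (0.320-fold, lower in 6 of 6 libraries, exact paired p = 0.0312, adjusted p = 0.0416). At the study's thresholds 82 members fell and 0 rose (background 27.1% lower and 23.7% higher), with a median log2 change of -1.31. Rps2, a small subunit protein at the mRNA entry site, led with -2.12 ± 0.0589 (edgeR adjusted p = 8.11e-17), and Rps9 fell by 0.36 on the log2 scale.

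Il1b-high neutrophils, the inflammatory subset of mature cells, had a higher RP share than the other mature neutrophils in 6 of 6 libraries, at 3.67% ± 0.248 (1.58-fold, exact paired p = 0.0312, adjusted p = 0.0416). Their makeup differed in a few members. Rps27l, a p53-responsive paralog of Rps27, stood at 71.9 and 94.95 CPM in WT, 101 and 116 CPM with vehicle and 86.1 and 93.5 CPM with IACS-70654, above the 25.3 to 42.8 CPM of the other mature neutrophils in every library (log2 change 0.89 ± 0.130, edgeR adjusted p = 4.32e-06). Rplp0 changed by -0.93 ± 0.114 (adjusted p = 2.51e-07) and Rps27a by -0.76 ± 0.0959. By TMM, 3 members rose and 5 fell at the study's thresholds (background 10.3% and 15.5%). Scaling to library totals, which moves the median of all genes by 0.66, raised 66 members and lowered 0, so the count and its direction rest on the scaling.

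In HSPCs the shares lay close together. HSC-like cells, which express Procr, Mecom and Hlf, held 29.0% ± 1.93 (SD, n = 6), Flt3-expressing multipotent progenitors (MPP-like) 30.1% ± 1.08, and neutrophil-committed granulocyte-monocyte progenitors (GMP-like) 29.8% ± 1.58. Neither step passed the exact paired test (adjusted p = 0.136 and 0.281), with MPP-like cells higher than HSC-like cells in 4 of 6 libraries and GMP-like cells higher than MPP-like cells in 3 of 6. Erythroid progenitors had the highest share, 33.3% ± 0.283, and megakaryocyte progenitors a lower one of 28.2% ± 1.77 than MPP-like cells (1.11-fold and 0.933-fold, each in 6 of 6 libraries, exact paired p = 0.0312, adjusted p = 0.0416).

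Erythroid progenitors upregulated 24 members and downregulated 0 against MPP-like cells at the study's thresholds (background 21.1% higher), and at adjusted p under 0.05 alone 80 of 83 tested rose (background 36.7%), with a median log2 change of 0.41. Rps2 stood at 2223 and 2246 CPM in WT, 2131 and 2129 CPM with vehicle, and 2226 and 2212 CPM with IACS-70654 in erythroid cells, against 1322 to 1473 CPM in MPP-like cells (log2 change 0.94 ± 0.0373, 1.91-fold, edgeR adjusted p = 9.06e-12). Rplp0 rose by 0.80 ± 0.0312 (adjusted p = 6.72e-12). Rps19, the most frequently mutated Diamond-Blackfan gene, rose by 0.26 ± 0.0350 on the TMM scale (adjusted p = 7.44e-06). This size is within the -0.27 shift by library totals given below. Rps24 (edgeR adjusted p = 0.931) and Rpl39 (adjusted p = 0.722) did not pass. Scaling to library totals, which moves the median of all genes by -0.27, leaves 3 members at the study's thresholds, and 1 member, Rps2, passed them against the summed RP UMIs.

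2 paralogs rose from HSC-like to GMP-like cells, but were not particular to this path. Rps27l (ENSMUSG00000036781, chr9:66946086-66949516, plus strand) stood at 277 to 300.32 CPM in the 6 HSC-like libraries, 415 to 530 CPM in MPP-like and 599 to 764 CPM in GMP-like cells, without overlap between successive steps (log2 changes 0.81 ± 0.0441 and 0.70 ± 0.0355, edgeR adjusted p = 4.45e-23 and 3.56e-14). Its part in the Rps27 and Rps27l sum rose from 11.2% in HSC-like to 18.9% in MPP-like and 27.1% in GMP-like cells, and was 21.5% in pro/preNeu, 10.6% in immature and 5.65% in mature neutrophils. Rpl36al, an expressed copy of Rpl36a, made up 27.0% of their sum in HSC-like, 33.2% in MPP-like and 41.6% in GMP-like cells and 56.0% in immature neutrophils (log2 changes 0.59 ± 0.0384 and 0.72 ± 0.0323, adjusted p = 8.91e-20 and 3.97e-15). Both paralogs also passed when fitted against the summed RP UMIs in GMP-like against MPP-like cells, where these 2 were the members past the study's thresholds (background 7.61% higher and 23.0% lower). Reads shared by near-identical copies could move these values.

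By TMM, most other members rose at these steps, though the counts depended on the scaling. At adjusted p under 0.05, 71 of 83 members tested rose from HSC-like to MPP-like cells and 0 fell (background 27.4% higher and 30.8% lower), with a median log2 change of 0.22. This fit takes the groups together. By group, the mean RP share went from 31.0% to 31.4% in WT, 29.2% to 29.3% with vehicle and 26.7% to 29.6% with IACS-70654. In GMP-like against MPP-like cells 62 rose and 0 fell (background 29.8% and 31.2%), with a median of 0.18. Under scaling to library totals, which moves the median of all genes by -0.14 and -0.18, the counts became 43 higher and 7 lower, and 20 higher and 26 lower. In megakaryocyte progenitors 0 rose and 54 fell (background 18.7% and 20.9%), with a median of -0.14 and Rpl10, which joins the large subunit last, at -0.31 ± 0.0430.

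Across 17 classes, the members with the most variable part of RP UMIs were Rpl3l (coefficient of variation 238% over class means), Rps9 (85.5%), Rps27rt (70.0%), Rps27 (62.0%) and Rpl7l1 (51.7%), with a median of 18.3% over members. Rps9 ran from 1.61% of RP UMIs in erythroid progenitors to 10.9% in mature neutrophils, and Rps27 from 0.596% in erythroid progenitors to 3.24% in Il1b-high neutrophils. Rps23, Rpl24 and Rps3 varied least, at 5.31%, 5.79% and 6.03%.

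Other translation genes changed along with the members between stages. From pro/preNeu to mature neutrophils and at adjusted p under 0.05, 5 of 5 elongation factor genes fell (median log2 change -1.72), as did 13 of 13 genes of initiation factor eIF3, 8 of 8 other TOP mRNAs, 11 of 12 ribosome biogenesis genes (median -2.66, 1 rose) and 73 of 78 mitochondrial RP genes (median -2.04, 3 rose), with 44.7% of all genes lower. In erythroid against MPP-like cells, 77 of 78 mitochondrial RP genes (median 0.75) and 12 of 12 biogenesis genes (median 0.63) rose, with 36.7% of all genes higher. From HSC-like to MPP-like cells, 70 mitochondrial RP genes rose and 1 fell, with a median of 0.51 and the background given above for this step. As for the members, this fit takes the groups together.

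IACS-70654 was compared with vehicle in each class to ask whether its change extends to RP genes. In single values per library, an exact permutation test of 2 against 2 libraries cannot go below p = 0.3333, so shares are given with their spread. Member by member, edgeR tests over all genes are given at an adjusted p under 0.05, since most changes were below the size threshold of the study. In bulk sums of this kind, fewer RP transcripts and more of other transcripts per cell cannot be told apart.

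Monocytes had a higher RP share with IACS-70654. Vehicle libraries held 17.4% and 17.6%, IACS-70654 libraries 19.8% and 19.8%, and WT libraries 19.4% and 19.5%, without overlap between vehicle and either other group (1.13-fold, 19.8% ± 0.0570 against 17.5% ± 0.115, SD, n = 2 each). RP UMIs per cell went from 2266 and 2177 to 2675 and 2741, a log2 difference of 0.29 beside 0.07 for all other UMIs per cell. Of 83 members tested, 75 rose and 2 fell (background 7.87% higher and 10.5% lower), none past the study's thresholds, with a median log2 change of 0.19 that scaling to library totals left within 0.1. Rplp1 (ENSMUSG00000007892, chr9:61913284-61914542, minus strand) stood at 3097 and 3059 CPM in WT, 2857 and 2878 CPM with vehicle, and 3790 and 3812 CPM with IACS-70654, above both other groups (log2 change 0.41 ± 0.0235, 1.33-fold, edgeR adjusted p = 4.75e-14). Rpl12 and Rps4x, the X-linked small subunit gene, rose by 0.38 ± 0.0260 and 0.33 ± 0.0235. The 2 members that fell were the paralogs Rpl36al (-0.18 ± 0.0326, adjusted p = 9.59e-05) and Rps27l (-0.14 ± 0.0443, adjusted p = 0.0218). Counts ran from 69 to 77 when any 1 library was left out. In the cluster that held 54.5% of IACS-70654 and 54.9% of vehicle monocytes, the vehicle libraries had shares of 15.4% and 15.6% and the IACS-70654 libraries 19.8% and 19.1%, and in the remaining cluster 18.5% and 18.6% against 19.8% and 20.1%. The summed neutrophil markers in monocytes (11 genes, 0 of them at zero) were 21375 to 25057 CPM with vehicle and 26625 to 31735 CPM with IACS-70654, pro/preNeu markers 4583 to 4876 and 6193 to 6493 CPM, and the monocyte markers (9 genes) 7093 to 7199 and 5164 to 5389 CPM. Their part in the result was not tested.

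In pro/preNeu as 1 class, IACS-70654 came with a 1.53-fold higher RP share than vehicle (13.1% ± 0.0760 against 8.61% ± 0.532, SD, n = 2 each), and 73 of 84 members rose while 1 fell (background 26.6% and 26.1%). At the study's thresholds 14 rose and 0 fell (background 13.5% and 11.1%), led by Rpl3 (log2 change 0.74 ± 0.0678, edgeR adjusted p = 6.93e-09) and Rpl10a (0.72 ± 0.0678), and this count was 25 without vehicle library 1, 7 without vehicle library 2 and 68 under library totals, where the median of all genes shifts by 0.29. The class held different mixtures of its subclasses. Azurophil-high precursors were 54.1% and 53.3% of pro/preNeu with IACS-70654, 21.9% and 19.0% with vehicle, and 21.2% and 26.1% in WT.

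Within the subclasses the shares lay closer together, although the clusters inside each subclass were not compared singly. In azurophil-high precursors the vehicle libraries held 19.0% and 18.3% and the IACS-70654 libraries 18.0% and 18.0%, and 1 member rose and 31 fell by TMM (background 6.24% and 10.5%), against 14 and 20 under library totals and 0 and 10 without either IACS-70654 library. Rpl38, a large subunit protein, went from 2318 and 2345 CPM to 1821 and 1841 CPM (log2 change -0.43 ± 0.0560, edgeR adjusted p = 7.37e-07). In cycling preNeu the vehicle libraries held 5.96% and 5.74% and the IACS-70654 libraries 6.37% and 6.27% (1.08-fold, without overlap), and 5 members rose and 25 fell by TMM (background 12.2% and 13.4%, 19 in all without IACS-70654 library 2). Here scaling to library totals shifts the median of all genes by 0.23 and gives 53 higher and 2 lower, so the direction of the members depends on the scaling. Rpl3 was higher in both libraries by either scaling, at 421 and 411 CPM against 291 and 289 CPM (0.29 ± 0.0519, adjusted p = 6.27e-05), and Rps29 was lower by either, at 1845 and 1836 CPM against 2155 and 2113 CPM (-0.44 ± 0.0411, adjusted p = 5.02e-10).

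In immature neutrophils the share was 1.19-fold higher with IACS-70654, and by TMM 36 of 84 members rose and 18 fell (background 18.0% and 19.8%), against 77 and 0 under library totals, which shift the median of all genes by 0.25. Rplp1 stood at 340 and 323 CPM in WT, 282 and 298 CPM with vehicle and 515 and 540 CPM with IACS-70654, clear of both other groups (log2 change 0.62 ± 0.0329, edgeR adjusted p = 1.41e-24). Rpl12 rose by 0.56 ± 0.0423, while Rps29 was fitted at -0.27 ± 0.0242. The clusters differed in this. In the one that held most WT and vehicle cells, vehicle libraries held 3.19% and 3.22% and IACS-70654 libraries, with 101 and 100 cells, 3.76% and 3.89%. In the one with 49.8% of the IACS-70654 cells the shares overlapped, at 2.43% and 2.54% (36 and 42 vehicle cells) against 2.50% and 2.57%, and in the one with 42.4% they were 3.84% and 3.75% (31 vehicle cells in each library) against 4.85% and 4.82%.

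In mature neutrophils the share was slightly higher with IACS-70654 (2.44% ± 0.0270 against 2.29% ± 0.0170, 1.07-fold), yet by TMM 10 members rose and 37 fell (background 20.7% and 25.1%). Library totals shift the median of all genes by 0.26, and under them 55 rose and 9 fell. Within clusters the share was not higher throughout. It was higher in the one with 33.7% of the vehicle cells, at 2.32% and 2.28% in 79 and 112 IACS-70654 cells against 2.18% and 2.24%, and in another with 24 IACS-70654 cells in 1 library, at 2.38% against 2.35% and 2.35%. In the cluster with 88.5% of the IACS-70654 cells it was 2.43% and 2.48%, against 2.61% and 2.55% in 31 and 34 vehicle cells, and in the one led by Ccl6 and Cd101 the groups overlapped, at 2.35% and 2.42% against 2.36% and 2.35%. Rps9 fell on the TMM scale and in CPM alike, from 2968 and 2924 CPM with vehicle to 2556 and 2536 CPM, with WT at 2136 and 2126 CPM. The IACS-70654 libraries lay between the other groups (log2 change -0.47 ± 0.0223, edgeR adjusted p = 2.29e-35, and -0.30 ± 0.0246 against the summed RP UMIs). Rpl37 went from 542 and 557 to 424 and 454 CPM (-0.58 ± 0.0304, adjusted p = 3.07e-32). Rps27l was higher, at 37.3 and 42.8 CPM against 25.3 and 26.1 CPM (0.39 ± 0.0940, adjusted p = 3.15e-04).

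Il1b-high neutrophils, which made up 1 cluster in all groups, had a lower share with IACS-70654. WT libraries held 3.43% and 3.42%, vehicle libraries 3.95% and 3.98%, and IACS-70654 libraries 3.61% and 3.60%, without overlap (0.908-fold against vehicle). Whether this differs from the other neutrophils was not tested. Of 83 members tested, 5 rose and 20 fell (background 10.3% and 12.5%), a count of 25 that was 13 without vehicle library 1, 11 without vehicle library 2, 12 without IACS-70654 library 1 and 11 without IACS-70654 library 2. Rps12 was highest, at 732 and 746 CPM in WT, 772 and 729 CPM with vehicle and 1018 and 1089 CPM with IACS-70654, above both other groups (log2 change 0.55 ± 0.0663, edgeR adjusted p = 1.31e-07). Rpl10 went from 426 and 457 CPM to 272 and 287 CPM (-0.60 ± 0.0863, adjusted p = 3.18e-06). Rpl3l was fitted at -1.37 ± 0.383 (adjusted p = 0.00868) on 10 to 19 UMIs per library of these groups.

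B cells had a 1.31-fold higher share (17.1% ± 1.73 against 12.99% ± 0.560), with 50 of 83 members higher and 0 lower (background 5.57% and 5.22%) and 31 past the study's thresholds (background 3.19%). The count of 50 was 27 without WT library 1, 25 without WT library 2 and 22 without vehicle library 1. Rplp1 went from 1545 and 1838 CPM to 2870 and 3478 CPM (log2 change 0.98 ± 0.135, edgeR adjusted p = 6.23e-05). These are 144 IACS-70654 and 270 vehicle cells, of which 75.7% of the former lay in a cluster led by Bank1 and Ighd that held fewer than 20 vehicle cells in each library, so no value within a cluster can be set between these groups, and drug and B cell stage cannot be told apart. The WT cells of that cluster held 18.8% and 20.2% and the IACS-70654 cells 17.6% and 18.9%. Summed neutrophil markers in B cells were 67951 to 70392 CPM with vehicle and 60830 to 88368 CPM with IACS-70654, and their part was not tested. In plasmacytoid dendritic cells 4 members rose and 0 fell (background 0.867% and 2.45%), led by Rplp1. In T/NK cells and basophils 0 members passed in either direction with edgeR, with backgrounds of 0.282% higher and 1.19% lower in T/NK cells and 0.454% and 1.89% in basophils, and 1 and 6 members had an unadjusted p under 0.05 (11.6% and 11.3% of all genes). There the shares of vehicle and IACS-70654 libraries overlapped.

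**Figure D4:**
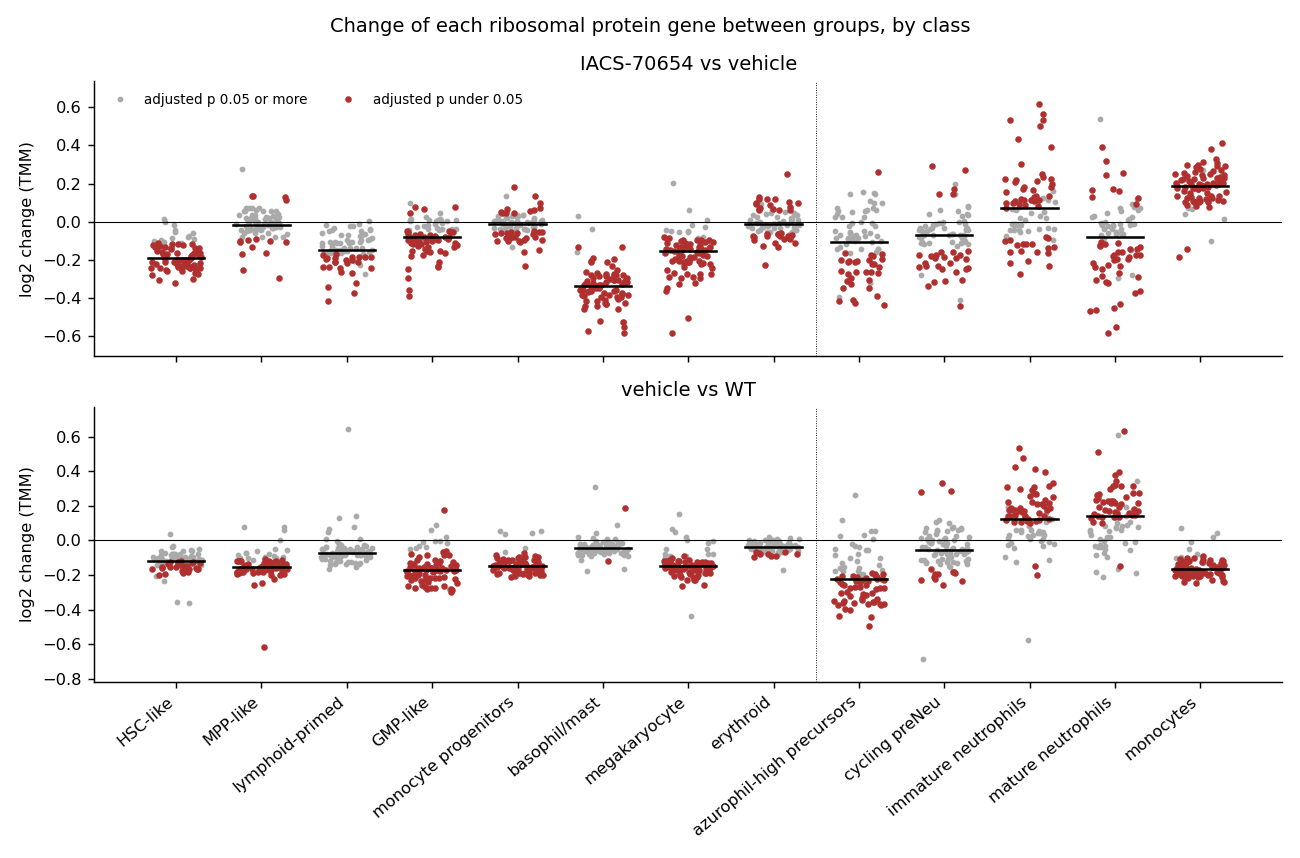
Fitted log2 change (TMM scale, vertical axis) of the members in 13 classes (horizontal axis) with IACS-70654 against vehicle (top) and with vehicle against WT (bottom, sharing the vehicle libraries), 1 point per member, red for edgeR adjusted p under 0.05, black bar for the median. The dotted line separates HSPC from CD45+ classes. Top medians are 0.19 in monocytes, -0.19 in HSC-like and -0.33 in basophil/mast cells, while the direction at the top in mature neutrophils, cycling preNeu, MPP-like cells and monocyte progenitors and at the bottom in immature and mature neutrophils depends on the scaling.

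In HSPCs, IACS-70654 came with lower RP values in several lineages. Median UMIs per cell in the HSPC libraries were 6954 and 6712 with IACS-70654, 9512 and 8670.5 with vehicle and 8061 and 7810 in WT. In the CD45+ libraries they were 6534 and 6596.5, 5330.5 and 5328, and 4113 and 4276.5 in the same order. The part of depth in the RP values was not tested. HSC-like cells held 29.4% and 29.1% with vehicle, 26.6% and 26.8% with IACS-70654 and 31.4% and 30.5% in WT, with no overlap between any groups (0.913-fold). Of 83 members tested, 68 fell and 0 rose (background 5.48% lower and 3.32% higher), with a median log2 change of -0.19, and leaving out any 1 library gave 49 to 75. Rps19 stood at 4527 and 4249 CPM in WT, 4195 and 4153 CPM with vehicle and 3471 and 3472 CPM with IACS-70654 (log2 change -0.32 ± 0.0347, edgeR adjusted p = 8.77e-17). Rpl35 went from 2017 and 2048 CPM to 1721 and 1683 CPM. Rplp1 was nearly level, at 5611 and 5487 CPM and 5433 and 5511 CPM (-0.08 ± 0.0332, adjusted p = 0.153). Summed HSC markers in these cells were 2932 to 2952 CPM with vehicle and 3164 to 3171 CPM with IACS-70654, and MPP markers 2251 to 2279 and 3064 to 3270 CPM. Their part was not tested.

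Basophil/mast progenitors showed the largest fall among HSPC classes by the median, -0.33 over the members, with 79 of 83 tested lower and 0 higher (background 10.6% and 8.33%) and 5 past the study's thresholds (background 4.98%). Vehicle libraries held 29.4% and 28.8% and IACS-70654 libraries 25.1% and 25.2%, and RP UMIs per cell were 1782 and 1668 against 1094 and 1004, a log2 difference of -0.72 beside -0.43 for all other UMIs per cell. Rps2 went from 1227 and 1194 CPM to 914 and 834 CPM (log2 change -0.58 ± 0.0578, edgeR adjusted p = 1.35e-21), Rpl10 at 3318 and 3278 against 2409 and 2411 CPM, and Rps19 at 4205 and 4122 against 3078 and 3229 CPM. Rplp1 was at 5098 and 5025 against 5345 and 5368 CPM (-0.04 ± 0.0391, adjusted p = 0.561). Of the IACS-70654 cells, 74.6% lay in a cluster led by Scin, Gzmb and Cpa3 and of the vehicle cells 72.2% in one led by Mcpt8 and Ms4a2. Within each the share was lower with IACS-70654, at 23.5% and 23.9% against 25.9% and 26.9% in the former and 27.6% and 28.0% against 30.2% and 29.2% in the latter.

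Megakaryocyte progenitors had 69 members lower and 0 higher (background 10.9% and 7.68%, median log2 change -0.15), or 42 and 2 under library totals. Their clusters were unevenly filled, with 83.6% of IACS-70654 and 58.8% of vehicle cells in the larger one and the others in one led by Pf4. Within both the share was lower with IACS-70654, at 27.5% and 27.5% against 28.9% and 28.3% in the former and 24.2% and 22.4% against 27.1% and 27.1% (122 and 38 cells) in the latter. Rps27l there went from 559 and 536 CPM to 382 and 441 CPM (-0.50 ± 0.0622, edgeR adjusted p = 1.06e-10). Lymphoid-primed progenitors had 25 lower and 0 higher (background 4.85% and 2.01%), or 10 and 0 under library totals, 52 without either WT library and 3 or 4 without any 1 of the other libraries, with Rpl36al at -0.41. In GMP-like cells 54 members fell and 4 rose (background 16.6% and 14.7%), but the split was 30 and 21 under library totals, the median was only -0.08 and the shares were 29.0% and 28.7% against 28.7% and 28.6%. In their largest cluster the IACS-70654 libraries held 29.4% and 29.6% and the vehicle libraries 29.4% and 29.2%. In the one with 22.8% of the IACS-70654 cells they held 28.1% and 27.9% against 28.3% and 28.2%. The cluster with 22.8% of the vehicle cells differed more, at 25.8% and 26.3% against 28.8% and 28.1%. Rps27l stood apart in GMP-like cells, at 651 and 668 CPM in WT, 752 and 764 CPM with vehicle and 607 and 599 CPM with IACS-70654, with no overlap between groups (-0.39 ± 0.0254, 0.764-fold, adjusted p = 1.64e-50). MPP-like cells had 4 members higher and 11 lower (background 9.9% and 12.8%) by TMM and 14 higher and 13 lower under library totals, with overlapping shares. The count of 15 was 8 without IACS-70654 library 1, 9 without IACS-70654 library 2 and 21, with more higher than lower, without vehicle library 2. Rps27l fell there too, from 501 and 530 CPM to 415 and 431 CPM (-0.29 ± 0.0414, adjusted p = 7.49e-08). Monocyte progenitors had 11 higher and 24 lower (background 11.5% and 13.3%) by TMM but 36 and 29 under library totals, and their count of 35 was 61 without either WT library and 21 without vehicle library 1 or IACS-70654 library 1. In erythroid progenitors, whose shares overlapped, 17 were higher and 19 lower (background 9.41% and 12.0%), a count of 36 that was 21 and 22 without WT library 1 and 2 and 17 and 19 without IACS-70654 library 1 and 2, and the balance of higher and lower turned in each of these and without vehicle library 2.

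Tumor-bearing mice given vehicle were also compared with WT mice, a comparison that shares its vehicle libraries with the one above. These groups differ in the tumor, its transplantation and the vehicle given by mouth, which cannot be told apart. RP shares were lower with vehicle by their means in 16 of 19 classes, of which azurophil-high precursors and cycling preNeu (both lower) are also counted within pro/preNeu, and the exact test of 2 against 2 libraries cannot pass. In monocytes 73 members fell and 0 rose (background 2.27% and 2.38%), and leaving out 1 library gave 66 to 71. Rps14, which is lost in a human myelodysplastic syndrome, went from 2323 and 2325 CPM in WT to 1971 and 1978 CPM (log2 change -0.25 ± 0.0259, edgeR adjusted p = 1.77e-07), and stood at 2309 and 2296 CPM with IACS-70654. In GMP-like cells 70 fell and 1 rose (background 4.42% and 5.33%, 66 to 74 without 1 library). Rpl17 went from 4428 and 4491 to 3717 and 3686 CPM (-0.30 ± 0.0201, adjusted p = 2.15e-46), while Rps27l was the member that rose (0.17 ± 0.0305, adjusted p = 6.74e-07). RP shares of GMP-like cells were 31.8% and 31.8% in WT and 29.0% and 28.7% with vehicle.

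In 4 other progenitor classes many members were lower. Counts of members lower and higher were 77 and 0 in monocyte progenitors (background 4.03% lower and 4.11% higher), 66 and 0 in megakaryocyte progenitors (2.21% and 2.43%), 65 and 0 in MPP-like cells (1.93% and 1.81%, 38 without WT library 2) and 28 and 0 in HSC-like cells (0.904% and 0.972%), the last being 61 without WT library 2, 8 without vehicle library 1, 16 without vehicle library 2 and 12 without either IACS-70654 library, which enter the estimate of the spread. In erythroid progenitors 9 fell and 0 rose (background 1.88% and 2.75%), and in basophil/mast progenitors 1 fell and 1 rose (1.59% and 2.26%). The basophil/mast cluster led by Mcpt8 and Ms4a2 held 57.5% of WT and 72.2% of vehicle cells. Within it the share was 30.2% and 29.2% with vehicle against 30.9% and 31.4% in WT, and in the other cluster 25.9% and 26.9% against 28.2% and 28.3%. In the precursors, 51 members fell in pro/preNeu (background 6.25% lower and 8.4% higher) and 53 in azurophil-high precursors (2.45% and 3.23%), led by Rps7 at -0.45 and -0.50, and 0 rose in either. In cycling preNeu 11 fell and 3 rose (background 4.9% and 7.78%), among the latter Rps9 at 0.28 ± 0.0435 (edgeR adjusted p = 1.78e-05), from 1825 and 1950 CPM to 2064 and 2085 CPM. This count of 14 was 37 without WT library 1, 7 without vehicle library 2 and 14 with most higher (10 and 4) without WT library 2, and 60 fell and 3 rose under library totals, which shift the median of all genes by -0.15. The count in pro/preNeu was 25 without WT library 2 and 12 without vehicle library 2, and that in azurophil-high precursors 25 without WT library 2, 35 without vehicle library 2 and 30 or 32 without 1 IACS-70654 library. In pDCs, basophils, T/NK cells and lymphoid-primed progenitors 0 members passed with edgeR, with backgrounds of 0.0138%, 0.276%, 0.537% and 0.0996% lower, while 14, 0, 44 and 12 members had an unadjusted p under 0.05, as did 6.55%, 7.32%, 14.0% and 7.02% of all genes. The share in T/NK cells was 17.5% ± 2.10 with vehicle, in 22 and 21 cells, against 22.5% ± 1.18 in WT (0.774-fold, without overlap).

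Maturing neutrophils went the other way by TMM. In mature neutrophils 44 members rose and 1 fell with vehicle against WT (background 15.9% and 13.9%), and in immature neutrophils 48 rose and 2 fell (11.9% and 8.3%). Library totals shift the medians of all genes by -0.16 and -0.24 here and turn the direction in both, to 12 higher and 21 lower in mature and 6 higher and 42 lower in immature neutrophils. Rps9 rose under both, from 2136 and 2126 CPM to 2968 and 2924 CPM (log2 change 0.63 ± 0.0230, 1.55-fold, edgeR adjusted p = 2.26e-44, and 0.43 ± 0.0253 against the summed RP UMIs). Rplp0 rose as well, from 308 and 294 to 378 and 387 CPM (0.51 ± 0.0354, adjusted p = 1.09e-23), and Rplp1 fell from 321 and 319 to 261 and 255 CPM (-0.15 ± 0.0379, adjusted p = 9.79e-04). In Il1b-high neutrophils, whose share was 1.16-fold higher with vehicle than in WT, 3 of 83 members tested passed by edgeR, each higher (background 1.27% higher and 2.59% lower), with 87 and 90 WT cells.

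Whether the IACS-70654 change differed between classes was tested with an interaction term in edgeR, at an adjusted p under 0.05 and with the median difference in log2 change. Mature neutrophils differed from pro/preNeu in 74 of the members, all lower (median -0.52, background 11.5% lower), led by Rpl10a at -1.25 ± 0.0929, with the mixture of subclasses given above. Against cycling preNeu alone, 19 were higher and 9 lower in mature neutrophils (median 0.04, background 9.95% and 7.8%), and the direction of this split turned without WT library 1 (14 and 23), vehicle library 1 (9 and 10), IACS-70654 library 1 (7 and 13) or IACS-70654 library 2 (3 and 11). Monocytes differed from cycling preNeu in 62 members, all higher (median 0.27, background 5.49%), led by Rps12 at 0.62 ± 0.0636, a count that was 15 (10 higher and 5 lower) under library totals and 32 without IACS-70654 library 2. Basophil/mast progenitors differed from MPP-like cells in 79 members, all lower (median -0.36, background 3.84%), led by Rpl10 at -0.56 ± 0.0679, and 51 and 50 differed without IACS-70654 library 1 and 2. Clusters of basophil/mast and of megakaryocyte progenitors were unevenly filled between the groups, as given above, and the part of this in the counts was not tested. For HSC-like against MPP-like cells the count was 36, all lower (background 0.697%), with Rps19 at -0.26 ± 0.0464, but it was 6 without vehicle library 1, 60 without vehicle library 2, 5 without IACS-70654 library 1 and 0 without IACS-70654 library 2. For megakaryocyte progenitors it was 32, all lower (background 2.85%), and 0 without vehicle library 1, 15 without IACS-70654 library 1 and 3 without IACS-70654 library 2. GMP-like cells differed in 5 members (1 higher and 4 lower, background 3.57% and 2.84%), 40 without vehicle library 2 and 1 or 2 without either IACS-70654 library or vehicle library 1.

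Some members departed from the rest in many classes with IACS-70654. These were picked after their values were seen, and their counts of classes have no count over the other members beside them. Against the summed RP UMIs and over 18 classes, Rplp1 was higher than with vehicle in 14 and lower in 0, with log2 changes from -0.0002 in erythroid progenitors to 0.61 in immature neutrophils and a median of 0.21. In basophil/mast progenitors it took 1.73% and 1.75% of RP UMIs in vehicle libraries and 2.13% and 2.13% in IACS-70654 libraries (log2 change 0.29 ± 0.0248, edgeR adjusted p = 9.38e-30), in HSC-like cells 1.91% and 1.88% against 2.04% and 2.06%, and in monocytes 1.64% and 1.64% against 1.91% and 1.93%. WT stood at 1.77% and 1.78%, 1.85% and 1.84%, and 1.59% and 1.57%, so the IACS-70654 libraries were above both other groups in all of these classes. Rps10 was higher in 12 and lower in 0. Rpl37 was lower in 9 and higher in 0, and Rpl36al lower in 9 and higher in 2. In vehicle against WT, which shares controls with this, Rplp1 was higher in 2 and lower in 2, Rpl41 higher in 9 and lower in 0, and Rpl36al higher in 7 and lower in 1.

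Other translation genes were set beside the members for IACS-70654 against vehicle. In monocytes 3 of 5 elongation factor genes, 3 of 13 eIF3 genes and 1 of 12 biogenesis genes rose. Of 78 mitochondrial RP genes there, 1 rose and 1 fell, where 7.87% of all genes were higher and 10.5% lower. The biogenesis and mitochondrial RP counts were thus near or below the share over all genes. The 9 of 11 Diamond-Blackfan genes that rose in monocytes are members, so they repeat part of the member count given above. In HSC-like cells 4 of 5 elongation factor genes (median -0.30), 5 of 12 biogenesis genes and 2 of 78 mitochondrial RP genes fell, with 5.48% of all genes lower, a share that the mitochondrial RP genes did not reach. In MPP-like cells, where few members changed, 8 of 12 biogenesis genes fell (median -0.31), and 18 of 78 mitochondrial RP genes fell and 2 rose, with 12.8% of all genes lower. In GMP-like cells 51 of 78 mitochondrial RP genes fell and 1 rose (median -0.16), with 16.6% of all genes lower. In basophil/mast progenitors 5 of 5 elongation factor genes (median -0.32) and 7 of 12 biogenesis genes (median -0.42) fell, with 10.6% of all genes lower. The 10 of 78 mitochondrial RP genes that fell were near that share. There, the 11 of 11 Diamond-Blackfan genes that fell again repeat part of the member count.

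In the 2208L tumors, with 1 library per condition and no replicate, RP genes took 18.3% of the UMIs of tumor cells with vehicle, 15.6% with IACS-70654, 17.8% with anti-PD-1 and 15.3% with the combination, so both libraries with IACS-70654 lay below both without. Tumor-associated neutrophils (TANs) held the lowest shares, at 5.53% (exact binomial 95% interval 5.47% to 5.59%), 6.42% (6.35% to 6.50%), 4.81% (4.76% to 4.86%) and 6.46% (6.39% to 6.54%) in the same order, in 471, 247, 555 and 309 cells. There the IACS-70654 libraries lay above the others, as they did in macrophages and monocytes, at 15.9% and 15.9% against 14.6% and 14.7%. In tumor T/NK cells they lay below, at 18.1% and 19.5% against 22.5% and 22.9%. These intervals cover counting error only, and the differences have no replicate check.

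TANs also carried the largest part of Rps9 among tumor cell types. It was 4.04% of RP UMIs with vehicle, 3.89% with IACS-70654, 4.26% with anti-PD-1 and 3.47% with the combination, and between 1.89% and 3.15% in every other type and library, well below the 9.47% to 13.01% of mature BM neutrophils. Rps27 took 1.41% to 1.80% of RP UMIs in TANs. Rpl3l took 0.004% to 0.021% in TANs, of 24394 to 38600 RP UMIs per library and so on very few UMIs.

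**Figure D5:**
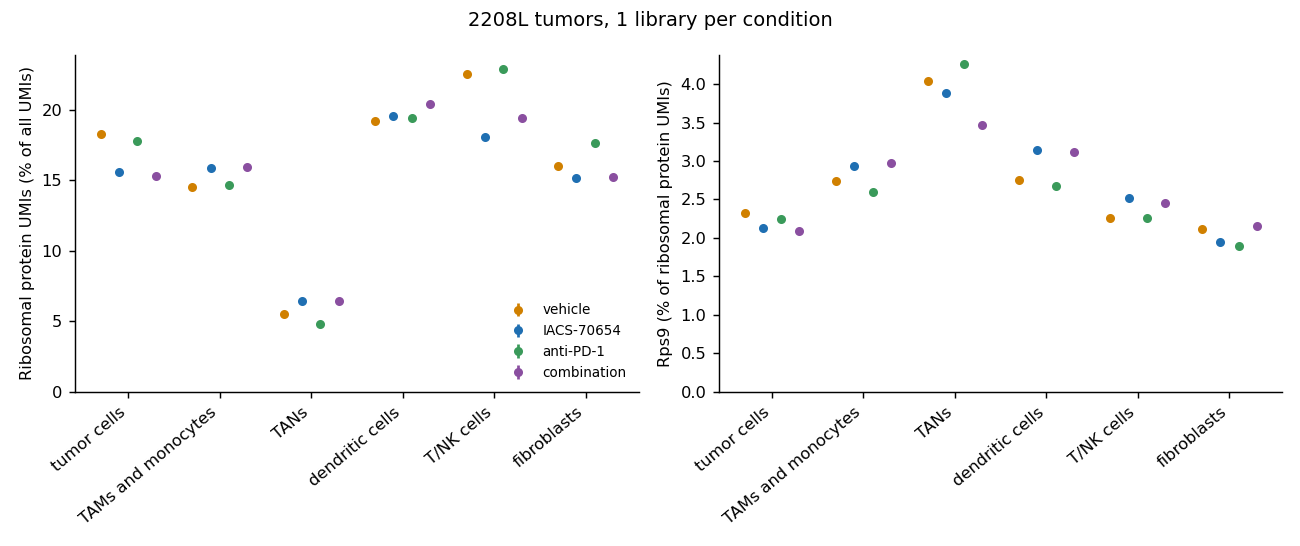
Left, share of UMIs taken by RP genes (percent) in tumor cell types, 1 point per condition with exact binomial 95% intervals. Right, Rps9 as a percent of RP UMIs. TANs stand lowest on the left, at 4.81% to 6.46%, and highest on the right, at 3.47% to 4.26%.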

How the data were processed

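The authors aligned reads, counted UMIs, called cells and assigned CellPlex tags with Cell Ranger (7.1.0 for tumors and 7.2.0 for BM in the file headers, build mm10 in the submitters' processing notes), and deposited a raw count per gene and cell without normalization. The members and gene lists used here were chosen with earlier results of these data known, and the study itself tested cells with MAST.

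Kept cells had over 200 and under 6000 genes, with up to 10% of UMIs from mitochondrial genes. Each sort was clustered in Python 3.11.15 with leidenalg 0.10.2 (2000 variable genes without RP and mitochondrial genes, 30 components, 20 neighbors, resolution 1, and 0.8 for neutrophils), and clusters were named from marker lists. The doublet caller (scanpy 1.11.5) marked 0.171% of cells and was not used. UMIs were summed per class and library where at least 20 cells were present, and tested in R 4.3.3 by edgeR 4.0.16 (low counts removed by filterByExpr, TMM scaling, quasi-likelihood, Benjamini-Hochberg over all genes tested, all 6 libraries of a sort). A second fit used the summed RP UMIs as library size. The edgeR step was tested on simulated data. Library totals, totals without RP and mitochondrial genes, DESeq2 1.42.0, filters, doublet scores and leaving out each library were tried as alternatives. Members named are a preset panel, the paralogs, the 5 largest called changes in each direction and the 5 most variable members, and others are said to be chosen after their values were seen. The variance between libraries of a group was 1.11 to 2.96 times that of counting alone (chi-square per degree of freedom over genes), so counting error was much of the spread in many classes. Depth limits mainly Rpl3l, Rps27rt and classes of few cells.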

Additional observations from a re-analysis of the deposited data

Results flagged for a closer look

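The change with IACS-70654 against vehicle differed between classes by the edgeR interaction term for 74 members in mature neutrophils against pro/preNeu (0 higher and 74 lower, with 11.5% of all genes lower), 28 in mature neutrophils against cycling preNeu (19 higher and 9 lower, with 9.95% and 7.8%) and 62 in monocytes against cycling preNeu (62 higher and 0 lower, with 5.49% higher). The split of 19 and 9 turned direction without WT library 1, vehicle library 1 or either IACS-70654 library, and the 62 became 15 under library totals and 32 without IACS-70654 library 2. Against MPP-like cells it differed for 36 members in HSC-like cells (0 higher and 36 lower, with 0.697% of all genes lower), 79 in basophil/mast progenitors (0 higher and 79 lower, with 3.84%), 32 in megakaryocyte progenitors (0 higher and 32 lower, with 2.85%) and 5 in GMP-like cells (1 higher and 4 lower, with 3.57% and 2.84%). Leaving out 1 library gave 0 (without IACS-70654 library 2) to 60 (without vehicle library 2) in HSC-like cells, 50 (without IACS-70654 library 2) to 79 in basophil/mast progenitors, 0 (without vehicle library 1) to 28 in megakaryocyte progenitors and 1 (without IACS-70654 library 2) to 40 (without vehicle library 2) in GMP-like cells. The pairs beyond mature neutrophils against pro/preNeu and GMP-like against MPP-like cells were added after the data had been seen. Mature neutrophils, pro/preNeu, basophil/mast and megakaryocyte progenitors held different mixtures of subclasses or clusters between groups, as given above. The part of these mixtures in the counts was not tested beyond the comparisons with cycling preNeu.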

How the results depend on the processing

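Depth limits mainly Rpl3l, Rps27rt and the classes of few cells. All group comparisons rest on 2 libraries against 2, which may be parts of 1 pool, and a class compared between groups can hold other clusters in each. Of all alternative values, 408 with 1 library left out and 331 others kept their direction and lay within the stated limits of the reported value, 60 and 42 moved, 12 and 18 turned direction, and 1 newly passed. The cause was not tested where no alternative shows it. The alternatives for azurophil-high precursors, cycling preNeu, immature and Il1b-high neutrophils, B cells, basophil/mast, megakaryocyte, monocyte, lymphoid-primed and erythroid progenitors and for the differences between classes, the doublet score and the precursor subclasses were chosen after seeing the data. The planned removal of predicted doublets was not run, since the caller marked 0.171% of cells. Replicate numbers did not pair the libraries (correlation of deviations from -0.04 to 0.043). With the replicate number as a block, the count in MPP-like cells with IACS-70654 was 25 rather than 15.

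Scaling decided several counts. Under library totals and totals without RP and mitochondrial genes, in this order, members passing with IACS-70654 against vehicle went from 14 to 68 and 75 in pro/preNeu and from 2 to 4 and 4 in mature neutrophils at the study's thresholds. At adjusted p under 0.05 they went from 47 to 64 and 64 in mature neutrophils, from 30 to 55 and 55 in cycling preNeu, from 35 to 65 and 56 in monocyte progenitors and from 15 to 27 and 21 in MPP-like cells, each with most members now higher. With library totals only, they went from 69 to 44 in megakaryocyte and from 25 to 10 in lymphoid-primed progenitors. For vehicle against WT, counts went from 0 to 7 and 17 in pro/preNeu and from 2 to 0 and 0 in mature neutrophils at the study's thresholds. At adjusted p under 0.05 they turned from 45 mostly higher to 33 and 32 mostly lower in mature neutrophils and from 50 to 48 and 48 in immature ones, and were 77 rather than 51 in pro/preNeu without RP and mitochondrial genes and 18 rather than 28 in HSC-like cells by library totals. Between stages, counts went from 8 to 66 and 68 in Il1b-high neutrophils, now all higher, from 5 to 1 and 1 in MPP-like against HSC-like cells and from 24 to 3 and 9 in erythroid progenitors. Differences of the IACS-70654 change went from 62 to 15 and 15 in monocytes and from 5 to 11 (library totals) in GMP-like cells.

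Splitting pro/preNeu left 0 members at the study's thresholds in azurophil-high precursors and 0 in cycling preNeu with IACS-70654, and at adjusted p under 0.05 it left 32 and 30 mostly lower members against 74. For vehicle against WT, cycling preNeu had 14 (11 lower and 3 higher, background 4.9% and 7.78%) against 51, and 63 and 64 by library totals and totals without RP and mitochondrial genes, mostly lower. DESeq2 gave 31 rather than 47 in mature neutrophils and 8 rather than 15 in MPP-like cells with IACS-70654, and 1 rather than 2 in mature neutrophils for vehicle against WT, as did leaving out the highest doublet scores (1). Without a filter on low counts, 25 rather than 15 members passed in MPP-like cells with IACS-70654, now mostly higher, 1 rather than 0 in GMP-like cells and 1 rather than 0 in MPP-like cells for vehicle against WT. With the median ratio of the members as reference in place of their sum, IACS-70654 gave 1 rather than 0 in pro/preNeu and 0 rather than 1 in mature neutrophils, and vehicle against WT 1 rather than 0 in mature neutrophils.

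Leaving out 1 library gave ranges. With IACS-70654 they were 7 to 25 in pro/preNeu at the study's thresholds, and at adjusted p under 0.05 8 to 21 in MPP-like cells, 10 to 33 in azurophil-high precursors, 19 to 41 in cycling preNeu, 22 to 67 in B cells, 21 to 61 in monocyte, 3 to 52 in lymphoid-primed and 17 to 36 in erythroid progenitors and 11 to 27 in Il1b-high neutrophils. Relative to the RP sum they were 0 to 1 in pro/preNeu and 0 to 2 in mature neutrophils. For vehicle against WT they were 0 to 5 in pro/preNeu, 1 to 2 in mature neutrophils and 0 to 1 in MPP-like cells at the study's thresholds, and 12 to 71 in pro/preNeu, 25 to 62 in azurophil-high precursors, 7 to 37 in cycling preNeu, 8 to 61 in HSC-like and 38 to 72 in MPP-like cells at adjusted p under 0.05. Il1b-high against mature neutrophils gave 6 to 10. Differences between classes gave 1 to 40 for GMP-like, 0 to 60 for HSC-like, 50 to 79 for basophil/mast, 0 to 28 for megakaryocyte, 32 to 66 for monocytes and 14 to 37 for mature neutrophils against cycling preNeu.

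The log2 ratio of the RP share with IACS-70654 against vehicle in pro/preNeu was 0.61, and 0.72 by the median cell, -0.0491 in azurophil-high precursors and 0.112 in cycling preNeu. In monocytes 0.18 became 0.27 by the median cell and 0.191 without the highest doublet scores, and in HSC-like cells -0.13 became -0.142 by the median cell. For vehicle against WT, -0.36 in pro/preNeu became -0.181 by the median cell and -0.184 in cycling preNeu, and -0.15 in monocytes became -0.131 by the median cell. The median cell also brought lymphoid-primed against MPP-like cells past the test (-0.0542 rather than -0.0438, exact paired permutation test).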
